A study of Rattus norvegicus with 4 samples.

Results

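The kinesin genes were taken as every symbol in the deposited tables that begins with Kif followed by a digit or the letter c, which gave 41 of the 30708 genes listed in the whole series. They were sorted by their known roles into 14 mitotic kinesins, 15 transport kinesins and 12 others (depolymerases with several roles, ciliary and hedgehog kinesins, and members of unsettled role). The data are poly(A) RNA-Seq of unmodified S16 cells, an immortalized rat Schwann cell line, in 2 populations. The population called WT-1 was at passage 9 and was the parental line of the study's deletion mutants, and WT-2 was at passage 39. Neither population carried an engineered allele or received a treatment, and both were grown in the same medium in T-75 flasks. Each was represented by 2 libraries that the labels call technical replicates, here the first and the second library. With 1 population per passage and 1 cell line, no p-value is given, and the libraries of a passage count as 1 population. Values are RPKM, reads per kilobase of gene length and per 1000000 reads, so levels can be compared between genes.

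Kinesins are motor proteins that use ATP to move along microtubules or to take their ends apart. Mitotic kinesins build the spindle, move chromosomes and complete cytokinesis, and their genes are transcribed mainly in G2 and mitosis of dividing cells. Transport kinesins carry vesicles, mitochondria, mRNA and receptors, and in Schwann cells they serve the long processes that reach along and around the axon.

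The read totals of the libraries, as recovered from the deposited values, lay between 34.2 and 41.4 M (M, 1000000). The recovered reads on kinesin genes numbered between 88084 and 120486 a library. Libraries with the same replicate number resembled each other more than libraries of the same passage. Over the 11025 genes whose mean reached 1 RPKM, the SD of the log2(RPKM + 1) difference was 0.080 between the first libraries of the 2 passages and 0.082 between the second, but 0.34 and 0.33 between the first and the second library within passage 9 and within passage 39. The 95% interval of the ratio between passages excluded 1 for 6.25% of these genes among the first libraries and for 8.85% among the second. The second libraries also carried a general shift, with a median log2 ratio to the first of 0.12 at passage 9 and 0.11 at passage 39. What set the numbered libraries apart is not in the labels, so the difference by number is described as one between libraries and not between conditions. The labels were used as given, and whether passage and replicate number are crossed in them was not tested. If they were crossed, the differences given here by number would be differences between passages, and those given by passage would be technical. All 10 Schwann cell markers were above 1 RPKM (Sox10, for example, between 171 and 183 RPKM). Of 12 neuron markers only Nefl and Nefm reached 1 RPKM, and Syt1, Elavl4 and Stmn2 were listed at 0 in all 4 libraries. The neuron markers summed to 145 and 149 RPKM in the first libraries and to 103 and 99.9 RPKM in the second, nearly all of it from Nefl and Nefm. Of the fibroblast, macrophage and multiciliated cell markers, 2 of 6, 1 of 4 and 1 of 5 reached 1 RPKM. The fibroblast markers summed to between 3349 and 3883 RPKM, nearly all from Col1a1 (collagen I), which had the highest mean of all listed genes at 3588 RPKM. The other fibroblast marker that reached 1 RPKM had a mean of 5.35 RPKM, and Dcn and Thy1 were at or near 0. Col1a1 was at 3344 and 3877 RPKM at passage 9, then 3359 and 3771 RPKM at passage 39, and the part of other cell types in the kinesin values was not tested.

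The promoters are shown first because they differ between the lists in a feature that the choice of genes did not use. RefSeq promoter windows (GRCr8, a different build from the rn5 genome of the deposited values; 250 bases before to 50 after the gene start) were found for 30 of the 41 kinesins, and Kif2c had 2. They were searched on both strands for TTTGAA and TTTAAA, the letters of the cell cycle homology region through which genes of late cell cycle phases are known to be repressed outside those phases, and for CCAAT, the box bound by NF-Y. Letters of the cell cycle homology region stood in 9 of 12 windows of mitotic kinesins, 0 of 11 windows of transport kinesins and 1 of 8 windows of the others (Kif26b), against 28.3% of all 33469 promoters and 18.9% of those of genes at 1 RPKM or more. They were also present in 24 of 25 windows of spindle partners, the fixed list of genes that work with the mitotic kinesins. CCAAT boxes were in 7 of 12 mitotic, 3 of 11 transport and 3 of 8 other windows, against 37.5% of all promoters. Both kinds of letters occurred in 7 of 12 mitotic windows and in 11.3% of all promoters. Kif18a, Kif18b and the other window of Kif2c held neither. In positions counted with the gene start as 0, the first base of the match lay at -35 in Kif11, -79 in Kif23, -3 in Kif4a, -22 in Kifc1 and -16 in Kif22, and a CCAAT box read on the opposite strand began at -61, -88, -27, -70 and -53 of the same genes. Kifc1 had another CCAAT box at -99, Kif4a at -175 and Kif22 at -231. A match is a description of letters and not a binding site, and windows without one may hold variant letters.

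The stretches from 150 bases before to 30 after the start are given for 5 mitotic kinesins that hold both motifs, for Kif18b, a mitotic kinesin without either, and for the transport kinesins Kif1b and Kif3b, which have CCAAT boxes only. Capitals mark the letters of the cell cycle homology region (TTTGAA or TTTAAA, or TTCAAA read on the opposite strand) and the CCAAT boxes (CCAAT or, on the opposite strand, ATTGG). They lie at chr1:244536717-244536896 on the plus strand (Kif11), chr8:71320555-71320734 on the minus strand (Kif23), chrX:69761733-69761912 on the plus strand (Kif4a), chr20:5000779-5000958 on the plus strand (Kifc1), chr1:191080849-191081028 on the minus strand (Kif22), chr10:88389662-88389841 on the minus strand (Kif18b), chr5:165025819-165025998 on the minus strand (Kif1b) and chr3:162218538-162218717 on the plus strand (Kif3b), and are printed 5′ to 3′ in the direction of the gene.
Kif11: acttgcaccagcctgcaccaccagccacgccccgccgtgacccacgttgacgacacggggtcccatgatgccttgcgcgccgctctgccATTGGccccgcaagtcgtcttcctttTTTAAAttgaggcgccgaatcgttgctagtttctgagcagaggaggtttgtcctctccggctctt
Kif23: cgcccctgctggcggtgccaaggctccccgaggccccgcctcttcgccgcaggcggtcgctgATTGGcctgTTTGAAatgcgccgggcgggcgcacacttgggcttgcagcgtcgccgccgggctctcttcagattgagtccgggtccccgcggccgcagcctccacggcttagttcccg
Kif4a: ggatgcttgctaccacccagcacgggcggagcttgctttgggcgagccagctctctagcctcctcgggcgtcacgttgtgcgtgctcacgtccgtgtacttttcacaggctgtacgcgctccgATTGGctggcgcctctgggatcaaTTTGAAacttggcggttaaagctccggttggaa
Kifc1: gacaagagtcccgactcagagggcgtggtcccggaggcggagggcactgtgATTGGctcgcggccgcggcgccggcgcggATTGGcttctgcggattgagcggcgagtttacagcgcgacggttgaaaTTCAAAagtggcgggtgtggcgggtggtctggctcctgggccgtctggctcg
Kif22: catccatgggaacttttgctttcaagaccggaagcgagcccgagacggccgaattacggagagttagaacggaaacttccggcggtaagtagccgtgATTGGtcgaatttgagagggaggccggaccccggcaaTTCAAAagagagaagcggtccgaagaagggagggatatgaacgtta
Kif18b: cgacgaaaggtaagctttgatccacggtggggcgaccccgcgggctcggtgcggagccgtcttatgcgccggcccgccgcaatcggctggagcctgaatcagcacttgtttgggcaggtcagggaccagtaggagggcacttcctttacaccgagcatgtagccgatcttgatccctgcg
Kif1b: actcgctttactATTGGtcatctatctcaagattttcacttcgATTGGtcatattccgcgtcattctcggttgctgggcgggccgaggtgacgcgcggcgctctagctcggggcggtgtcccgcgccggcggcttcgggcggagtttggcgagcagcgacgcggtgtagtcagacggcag
Kif3b: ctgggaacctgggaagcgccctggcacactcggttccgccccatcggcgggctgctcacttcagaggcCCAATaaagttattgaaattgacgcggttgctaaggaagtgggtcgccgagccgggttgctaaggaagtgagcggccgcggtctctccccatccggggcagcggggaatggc

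Mitotic kinesins were the more abundant list. Of the 41 kinesins, 30 (73.2%) had a mean of at least 1 RPKM, as had 35.9% of all listed genes. These 30 were 12 of 14 mitotic, 12 of 15 transport and 6 of 12 other kinesins. Among those at 1 RPKM or more, the median of the mean levels was 28.5 RPKM for mitotic and 9.38 RPKM for transport kinesins, beside 11.1 RPKM for all genes, a log2 difference of 1.60 between the 2 lists. The mitotic kinesins made up 55.9% of all kinesin RPKM in both first libraries and 51.5% in both second libraries. The transport kinesins made up 37.3% and 41.5% at passage 9 and 37.3% and 41.6% at passage 39. Kif5b alone gave between 35.1% and 36.9% of the transport sum.

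**Figure D1:**
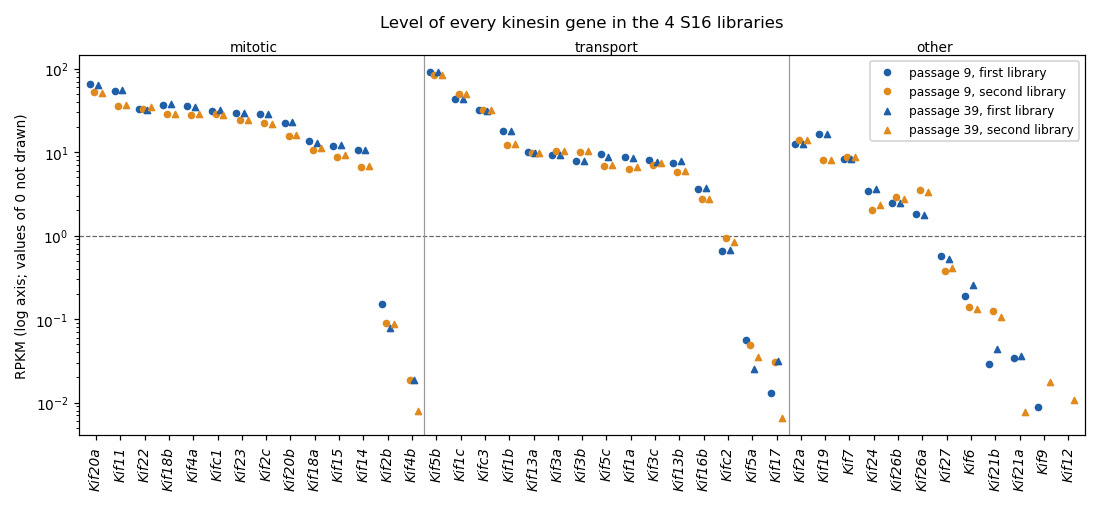
RPKM of the 41 kinesin genes (log axis) in the first (blue) and second (orange) libraries of passage 9 (circles) and passage 39 (triangles), sorted within each list by mean level; the dashed line marks 1 RPKM and values of 0 are not drawn. Of the mitotic kinesins 12 lay between 8.70 and 58.3 RPKM on average and 2 near the bottom, and blue points stood above orange points for most of them.

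The motors that set up and drive the spindle ranged widely in level. Kif11, the tetrameric motor that slides antiparallel microtubules apart and holds the spindle poles apart, was at 54.0 and 35.9 RPKM in the first and second library of passage 9 and at 54.7 and 36.9 RPKM in those of passage 39. Kif15, which can share this work with Kif11, was at 11.7 and 8.74 RPKM at passage 9, then 12.0 and 9.21 RPKM at passage 39. In both genes each second library lay below both first libraries, and the passages overlapped. Kifc1, the minus-end motor that focuses spindle poles, was at 31.3 and 28.4 RPKM and then at 32.2 and 27.9 RPKM. Its libraries had the same order with a smaller gap.

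The chromosome arm motors differed from each other. Kif4a, a chromokinesin that also limits the length of the central spindle, was at 35.4 and 27.8 RPKM at passage 9, then 35.1 and 28.9 RPKM at passage 39, with both second libraries lower. Kif22, the other chromokinesin, was at 32.6 and 32.8 RPKM and then at 31.6 and 34.4 RPKM, and was the only mitotic kinesin at 1 RPKM or more whose second libraries were not below the first. Kif4b, a near-identical relative of Kif4a whose reads may not be told apart from it when only uniquely mapped reads are kept, was listed at up to 0.019 RPKM on 5 reads in all.

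Of the motors that shorten microtubules, Kif18b, which acts at the ends of astral microtubules, was at 36.2 and 28.4 RPKM at passage 9, then 37.2 and 28.5 RPKM at passage 39. Kif2c, the centromere depolymerase that corrects wrong attachments, was at 28.8 and 22.1 RPKM and then at 28.4 and 21.6 RPKM. Kif18a, which damps chromosome movements at the metaphase plate, was at 13.4 and 10.7 RPKM and then at 13.0 and 11.1 RPKM. In all 3 the second libraries lay below the first. Kif2b, a relative of Kif2c, was listed at between 0.079 and 0.15 RPKM, on between 6 and 14 reads a library.

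The cytokinesis motors included the highest mitotic kinesin. Kif20a, which brings the chromosomal passenger complex to the central spindle, was at 65.5 and 52.3 RPKM at passage 9, then 64.5 and 51.0 RPKM at passage 39. Its mean was 58.3 ± 0.811 RPKM (SD of the passage means, n = 2 populations), an SD that leaves out the gap between the numbered libraries. Kif23, the motor of the centralspindlin complex, was at 29.7 and 24.5 RPKM and then at 29.4 and 24.4 RPKM. These motors, too, were lower in the second libraries. Kif20b, which acts late in cytokinesis, was at 22.4 and 15.8 RPKM at passage 9, then 23.2 and 15.9 RPKM at passage 39. Kif14, which brings citron kinase to the midbody, was at 10.6 and 6.72 RPKM and then at 10.7 and 6.76 RPKM. Kif14 had the widest gap in proportion between numbered libraries in the mitotic list, and its 2 first libraries differed by less than 0.1 RPKM.

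Kif5b, the heavy chain of kinesin-1 found in most cell types, was the highest of all kinesins, at 90.5 and 83.2 RPKM at passage 9, then 91.4 and 84.9 RPKM at passage 39. Its mean was 87.5 ± 0.941 RPKM (SD of the passage means, n = 2 populations), again without the gap between the numbered libraries. Of its neuronal relatives, Kif5c was at 9.50 and 6.83 RPKM and then at 8.64 and 6.96 RPKM, and Kif5a was listed at between 0.025 and 0.056 RPKM, on 3 to 8 reads a library. The level of kinesin-1 heavy chain RNA in these cells was thus mainly that of Kif5b.

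The kinesin-3 motors, which carry vesicles, spanned a wide range. Kif1c was at 42.8 and 50.2 RPKM at passage 9, then 43.2 and 49.3 RPKM at passage 39, with both second libraries above both first. Kif1b, a carrier of mitochondria and synaptic vesicle precursors, was at 17.8 and 12.2 RPKM and then at 18.1 and 12.4 RPKM. Kif1a, the relative known mainly from neurons, was at 8.75 and 6.34 RPKM and then at 8.49 and 6.62 RPKM. Kif1b and Kif1a thus had the opposite order of libraries from Kif1c. Kif13a, an endosome motor, was at 10.03 and 9.69 RPKM at passage 9, then 9.70 and 9.84 RPKM at passage 39, with no order by number. Kif13b, known for a part in Schwann cell myelination, was at 7.33 and 5.78 RPKM and then at 7.73 and 5.97 RPKM. Kif16b, which carries early endosomes, was at 3.62 and 2.76 RPKM and then at 3.75 and 2.75 RPKM. Kif13b and Kif16b were both lower in the second libraries.

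The kinesin-2 motor is a heterotrimer of Kif3a, Kif3b or Kif3c, and the accessory subunit Kifap3, and it serves intraflagellar and vesicle transport. Kif3a was at 9.30 and 10.3 RPKM at passage 9, then 9.24 and 10.4 RPKM at passage 39. Kif3b was at 7.77 and 9.91 RPKM and then at 7.91 and 10.2 RPKM. Kif3c, the partner enriched in neurons, was at 8.08 and 7.09 RPKM and then at 7.63 and 7.31 RPKM. Kif3a and Kif3b were higher in the second libraries and Kif3c was slightly lower in them. The other kinesin-2, Kif17, was listed at no more than 0.031 RPKM, on 1 to 4 reads a library, where 3 reads correspond to between 0.019 and 0.023 RPKM. Among the minus-end transport motors, Kifc3 was level across the libraries, at between 31.46 and 31.995 RPKM. Kifc2 was at between 0.65 and 0.94 RPKM.

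The 6 transport kinesins taken as enriched in neurons fell into 2 sets, with Kif1a, Kif3c and Kif5c between 7.53 and 7.98 RPKM on average and Kif5a, Kif17 and Kifc2 below 1 RPKM. Of the 12 other kinesins, Kif2a, a depolymerase of spindle poles and growing processes, was at 12.6 and 14.0 RPKM at passage 9, then 12.5 and 13.9 RPKM at passage 39. Kif19, which shortens microtubules at the tips of motile cilia, was at 16.3 and 8.08 RPKM and then at 16.4 and 7.98 RPKM. Both first libraries of Kif19 stood clear of both second libraries by a wide margin. Kif7, a ciliary component of hedgehog signalling, was at 8.17 and 8.85 RPKM and then at 8.19 and 8.78 RPKM. Its libraries of the same number nearly coincided, with both second libraries slightly above both first. Kif24, a centriole protein that restrains cilium assembly, was at 3.38 and 2.01 RPKM at passage 9, then 3.63 and 2.33 RPKM at passage 39. Kif26a and Kif26b, relatives whose motor domain lacks the usual ATPase activity, were at 1.79 and 3.54 RPKM and at 2.45 and 2.92 RPKM at passage 9, then 1.77 and 3.35 RPKM and at 2.44 and 2.76 RPKM at passage 39. Kif24 was thus lower, and Kif26a and Kif26b higher, in the second libraries. The remaining 6 (Kif27, Kif6, Kif21b, Kif21a, Kif9 and Kif12) had means between 0.0027 and 0.47 RPKM, and Kif21a, Kif9 and Kif12 were listed at 0 in at least 1 library. With Kif2b, Kif4b, Kif5a, Kif17 and Kifc2 they make the 11 kinesins below 1 RPKM, which were not counted further.

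Differences of the kinesins between the passages were small. Of the 30 kinesins at 1 RPKM or more, 0 reached 1.5-fold between passage 39 and passage 9 on the log2(RPKM + 1) scale, as did 3 of all 11025 genes (0.0272%). In 0 of the 30 did both libraries of one passage lie above both of the other, as they did for 6.21% of all genes. Nothing about passage can be read from this 0. In 29 of the 30 the libraries were already separated by number, as they were in 9670 of all 11025 genes. Separation by number leaves no room for separation by passage. The median log2 difference, passage 39 minus passage 9, was 0.01 over the mitotic, 0.00 over the transport kinesins and 0.00 over all genes. The largest single difference was that of Kif24, at 0.11 (2.70 RPKM at passage 9 and 2.98 RPKM at passage 39). Compared between libraries of one number, 1 kinesin among the first libraries (Kif5c, ratio 0.909, 95% interval 0.840 to 0.984) and 2 among the second (Kif24, 1.16, 1.02 to 1.31, and Kif5b, 1.02, 1.00 to 1.04) had an interval that excluded 1. No kinesin did so in both. The shares over all genes were the 6.25% and 8.85% given above, and 0.444% in both and in one direction, so that these counts over 30 kinesins are not set apart from the background. These intervals rest on the recovered reads and cover counting error only. The SD of the kinesins' log2 differences between passages was 0.042 among the first and 0.042 among the second libraries. Within passage 9 it was 0.33 between the first and second library, and within passage 39 it was also 0.33.

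**Figure D2:**
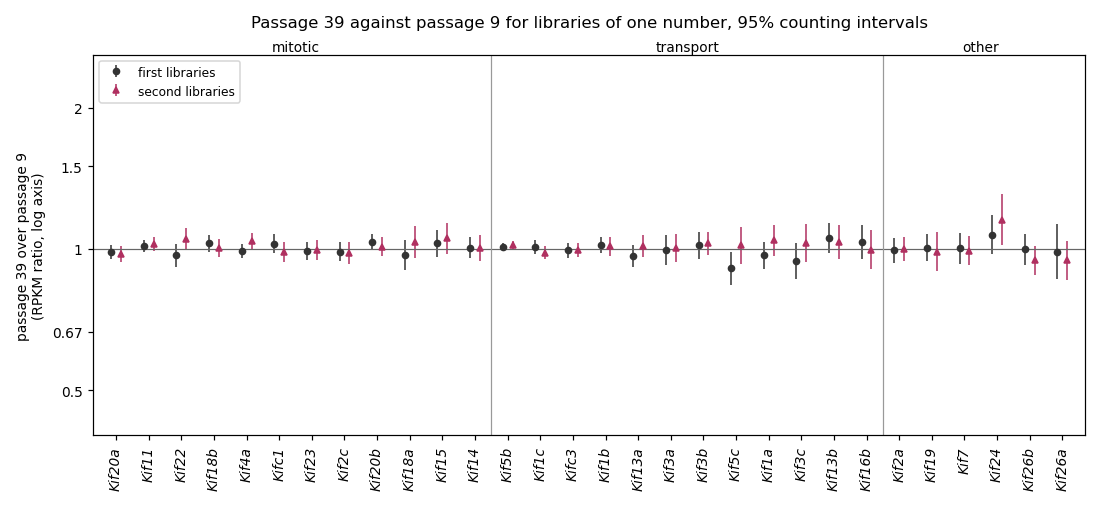
Ratio of passage 39 to passage 9 (log axis) for the 30 kinesins at 1 RPKM or more, among the first libraries (circles) and the second libraries (triangles), with 95% counting intervals. The points lie close to 1, from 0.909 (Kif5c, first libraries) to 1.16 (Kif24, second libraries).

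Compared by replicate number, most mitotic kinesins were lower in the second library at both passages. A gene was counted as lower or higher when the 95% counting interval of the ratio of the second to the first library lay on one side of 1 at passage 9 and also at passage 39. By this rule 19 of the 30 kinesins were lower, where 21.6% of all 11025 genes were, and 6 were higher, where 41.6% of all genes were. The other 5 (Kif22, Kif13a, Kif3c, Kifc3 and Kif7) were neither. In bulk RNA of this kind, fewer cells that express a gene, less of its RNA in each cell and a technical difference between libraries cannot be told apart. The labels call these libraries technical replicates of 1 population, so no difference between cells is read from the counts. With the libraries scaled to a median ratio of 1, which takes out the general shift, 21 kinesins were lower (28.6% of all genes) and 3 higher (29.5%). With RPKM rescaled to a common sum, 32 kinesins were at 1 RPKM or more. Of these 23 were lower (32.2% of all genes) and 3 higher (20.9%). The median log2 difference, second minus first library and averaged over the passages, was -0.28 over the 30 kinesins and 0.10 over all genes.

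Of the 12 mitotic kinesins, 11 were lower in the second libraries, 0 were higher and Kif22 was neither, and the same count of 11 was found under both other scalings. Their median log2 difference was -0.34 at passage 9 and -0.34 at passage 39. The ratio was smallest for Kif14, 0.632 (95% interval 0.596 to 0.6703) at passage 9 and 0.632 (0.597 to 0.6696) at passage 39. Kif11 followed at 0.666 (0.645 to 0.687) and 0.674 (0.653 to 0.695), and Kif20b at 0.703 (0.673 to 0.735) and 0.688 (0.659 to 0.718). The other 8 lay between 0.749 (Kif15) and 0.906 (Kifc1) at passage 9 and between 0.762 (Kif2c) and 0.869 (Kifc1) at passage 39. Kif22 had ratios of 1.006 (0.952 to 1.06) and 1.09 (1.03 to 1.15), and its log2 difference of 0.06 turned to -0.02 under median-ratio scaling and to -0.08 under rescaling to a common sum. Only Kif22 among the 30 kinesins had an interval of the quotient of the 2 ratios that excluded 1, at 1.08 (1.00 to 1.17), as had 7.12% of all genes.

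Of the 12 transport kinesins, 6 were lower (Kif5b, Kif1b, Kif5c, Kif1a, Kif13b and Kif16b), 3 were higher (Kif1c, Kif3a and Kif3b) and 3 were neither. Their median log2 difference was -0.11. Kif1b had the smallest ratios, 0.685 (0.655 to 0.715) at passage 9 and 0.682 (0.653 to 0.712) at passage 39. Kif5b, with 17273 or more reads in each library, had narrow intervals close to 1, at 0.920 (0.901 to 0.938) and 0.929 (0.910 to 0.947). Kif3b had the largest ratios, 1.28 (1.20 to 1.36) and 1.29 (1.21 to 1.37), and those of Kif1c were 1.17 (1.14 to 1.21) and 1.14 (1.10 to 1.18). Kif3a, at 1.11 and 1.12, was no longer counted as higher under median-ratio scaling or rescaling to a common sum, though its direction stayed. Kif3c and Kifc3 were counted as lower under both of these scalings, which turned the difference of Kifc3 from 0.02 to -0.07 and -0.13.

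Of the 6 other kinesins at 1 RPKM or more, 2 were lower (Kif19 and Kif24) and 3 were higher (Kif2a, Kif26a and Kif26b). The widest gaps of all kinesins were here. Kif19 had ratios of 0.496 (0.456 to 0.540) and 0.486 (0.448 to 0.528), and Kif26a had ratios of 1.97 (1.76 to 2.21) and 1.89 (1.68 to 2.14). On the log2(RPKM + 1) scale, 2 kinesins were at least 1.5-fold lower, Kif14 at -0.59 and Kif19 at -0.94, where 3.17% of all genes were. Kif26a, at 0.68, was the only kinesin at least 1.5-fold higher, where 2.89% of all genes were. Kif2a and Kif26b were no longer counted as higher under median-ratio scaling or rescaling to a common sum, and both stayed above 0. Kif7, at 0.10, turned to -0.04 under rescaling to a common sum.

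**Figure D3:**
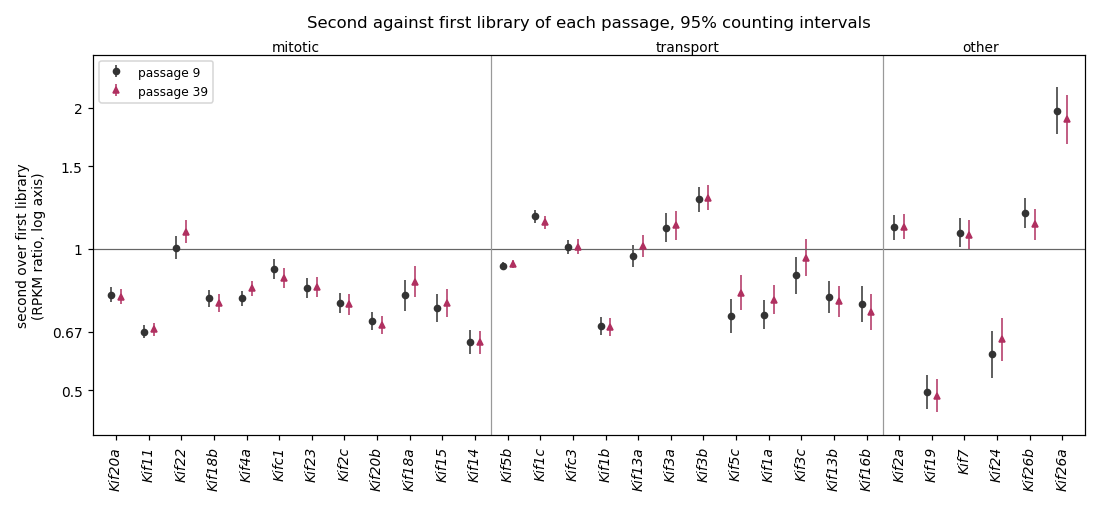
Ratio of the second to the first library (log axis) at passage 9 (circles) and passage 39 (triangles) for the 30 kinesins at 1 RPKM or more, with 95% counting intervals. All mitotic kinesins but Kif22 lie below 1 at both passages, transport kinesins lie on both sides, and Kif19 and Kif26a lie farthest out at 0.496 and 1.97 at passage 9.

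Gene length moved with this difference over all genes. Spearman's rho between recovered gene length and the log2 difference was -0.42 across all genes tested and 0.03 across the 30 kinesins, as descriptions over genes that share the same 4 libraries. The mitotic kinesins were the shorter list, with a median recovered length of 3384.5 bases against 5344 for transport kinesins. Set against the median of genes about as long, the log2 difference had medians of -0.41 for the mitotic and -0.08 for the transport kinesins, and 11 mitotic kinesins were still lower. Of all genes, 26.4% were lower and 25.8% higher in this comparison. The part of RNA quality or library preparation in these differences was not tested.

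The genes that work with the kinesins were taken from fixed lists. Of 30 spindle partners, 29 had at least 1 RPKM, of which 25 were lower in the second libraries and 0 were higher, with a median log2 difference of -0.23. Under both other scalings 28 were lower and 0 were higher. Of all genes, 28.6% were lower under median-ratio scaling and 32.2% under rescaling to a common sum. The 3 most abundant were Cdk1 (the mitotic kinase) at 153 RPKM, Prc1 (the bundler of the central spindle that Kif4a binds) at 121 RPKM and Top2a (topoisomerase II) at 117 RPKM. Cdk1 was neither lower nor higher, and Prc1 was lower at 133 and 108 RPKM at passage 9, then 134 and 108 RPKM at passage 39. Top2a (-0.65), Mki67 (the antigen Ki-67 of dividing cells, -0.80) and Foxm1 (a transcription factor of G2 and mitosis genes, -0.59) were the 3 at least 1.5-fold lower. Mki67, for example, was at 67.8 and 37.7 RPKM at passage 9, then 65.4 and 37.9 RPKM at passage 39. The others that were lower were Cenpe, Aurkb, Plk1, Incenp, Birc5, Cdca8, Ect2, Nusap1, Ccnb1, Bub1, Bub1b, Mad2l1, Anln, Numa1, Hmmr, Ckap2, Ckap5, Kntc1, Ndc80, Espl1 and Cdc20. Cenpe is itself a kinesin motor, though its symbol does not begin with Kif. Aurka, Tpx2 and Ccnb2 joined Cdk1 as neither.

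The partners of transport kinesins came to shares near those of all genes. Of 15 light chains and adaptors, 12 had at least 1 RPKM, of which 2 were lower in the second libraries (Trak2, a mitochondrial adaptor of kinesin-1, and Kidins220, a membrane cargo) and 4 were higher (the kinesin-1 light chains Klc1 and Klc2, the kinesin-2 subunit Kifap3, and the mitochondrial GTPase Rhot2). These are 16.7% lower and 33.3% higher, beside 21.6% and 41.6% of all genes. Their median log2 difference was 0.10, the same as over all genes, and it was 0.02 under median-ratio scaling and -0.04 under rescaling to a common sum. The medians over all genes were 0.03 and -0.03 under these scalings. Under the former, Klc1 and Klc2 remained counted as higher. Under the latter 0 were higher and 4 were lower, beside 20.9% and 32.2% of all genes. Klc1, the most abundant, was at 39.8 and 48.1 RPKM at passage 9, then 42.1 and 46.9 RPKM at passage 39, and its heavy chain Kif5b was lower in the second libraries. Kidins220 was at 19.6 and 13.1 RPKM and then at 19.5 and 13.2 RPKM. Next to Klc1 in abundance were Map7d1, which recruits kinesin-1 to microtubules, at 32.3 RPKM and Trak2 at 25.6 RPKM.

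Dynein, the motor that runs opposite to most kinesins, and its activator dynactin had 17 of 18 listed genes at 1 RPKM or more. Of these 3 were lower in the second libraries (Dync1h1, Dync1li2 and Dctn4) and 10 were higher (Dync1i2, Dync1li1, Dynll1, Dynlrb1, Dctn1, Dctn2, Dctn3, Dctn5, Dctn6 and Ndel1), with a median log2 difference of 0.14. This balance depended on the scaling, with 6 lower, 6 higher and a median of 0.05 under median-ratio scaling, and 8 lower, 5 higher and a median of -0.01 under rescaling to a common sum. Of all genes, 28.6% were lower and 29.5% higher under the former, and 32.2% lower and 20.9% higher under the latter. Dynlrb1, Dynll1, Dctn2, Dctn6 and Ndel1 were counted as higher under all 3. The most abundant were Dynlrb1 at 199.5 RPKM, Dynll1 at 169.7 RPKM and Dctn2 at 120.5 RPKM. Dynlrb1, a light chain, was the only one past 1.5-fold, at 161 and 247 RPKM at passage 9, then 152 and 237 RPKM at passage 39. Dync1h1, the heavy chain, was at 46.0 and 35.1 RPKM and then at 45.4 and 35.2 RPKM. Of the 10 Schwann cell markers, 7 were lower in the second libraries and 3 were higher, beside 21.6% and 41.6% of all genes. At least 1.5-fold lower were 3 of them, S100b and Mbp included, and Egr2 was at least 1.5-fold higher. Differences by number thus also occurred outside the motor genes.

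**Figure D4:**
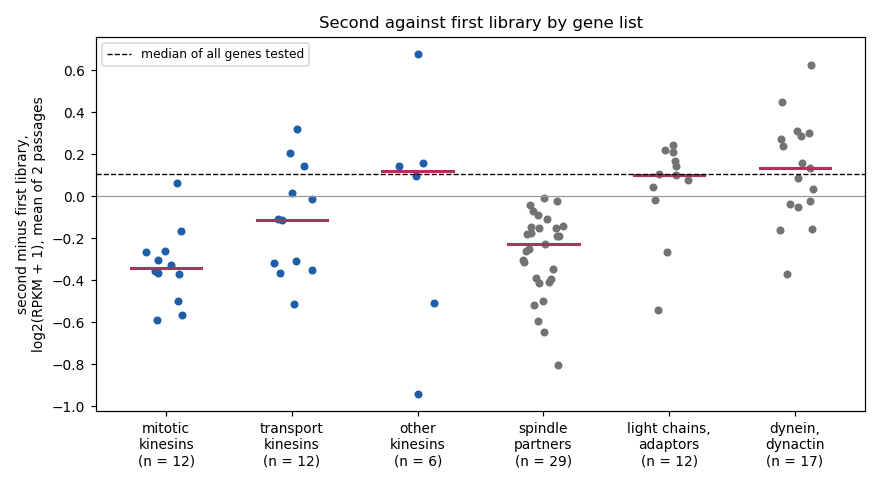
Difference of the second minus the first library on the log2(RPKM + 1) scale, averaged over the 2 passages, for each gene at 1 RPKM or more in 6 lists (points), with the list median (red bar) and the median of all genes tested (dashed line, 0.10). The mitotic kinesins (median -0.34) and spindle partners (-0.23) lie mostly below 0, and the light chains and adaptors (0.10) and dynein and dynactin genes (0.14) lie around or above the dashed line. The medians of the last 2 lists fall to -0.04 and -0.01 with RPKM rescaled to a common sum, and that of all genes to -0.03.

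In the GRCr8 gene table, 9 of the 30 kinesins at 1 RPKM or more overlap another protein-coding gene. The overlap is one of whole gene spans, introns included, and whether exons are shared was not examined. Counting ignored strand, so that reads from any exons shared by such a pair may not be told apart. The 9 are Kif11 (with Ide), Kif15 (RGD1311745), Kif18a (Mettl15), Kif20a (Cdc23), Kif4a (Pdzd11), Kif3c (Asxl2), Kif2a (Dimt1), Kif7 (Ticrr) and Kif19 (Btbd17). Ide was at 16.7 and 20.4 RPKM at passage 9, then 17.1 and 21.1 RPKM at passage 39, higher in the second libraries where Kif11 was lower. Btbd17 was listed at no more than 0.038 RPKM, far below Kif19. Other neighbours had differences of the same sign as their kinesin, with log2 differences by number of -0.41 for Asxl2 (13.7 RPKM) beside Kif3c, 0.22 for Dimt1 (16.5 RPKM) beside Kif2a and -0.16 for Cdc23 (12.0 RPKM) beside Kif20a. Pdzd11 (0.04) and RGD1311745 (0.13) had the opposite sign to Kif4a and Kif15, as had Ticrr (-0.55) to Kif7.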

How the data were processed

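Total RNA was taken from a confluent flask of S16 cells at each passage, and poly(A) TruSeq libraries were read as single ends of 50 bases. The submitters' processing notes name FastQC, STAR, HTSeq and the rn5 genome. Per the paper's methods, only uniquely mapped reads were kept and were counted per gene without regard to strand. The methods also state that the technical replicates were pooled and spread over sequencing lanes. The number of reads per cell line given there is below the total recovered here for each single library. This difference was not resolved, and all counting intervals rest on the recovered reads and totals. The authors deposited one RPKM value per gene symbol and library. The gene lengths and totals behind them are not given in the sources used here, and the tables name RefSeq models where the methods name Ensembl.

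Totals and whole reads were recovered from the values (relative tolerance 1e-11) for 18113 of 18114 genes above 0 in at least 2 libraries and for 40 of 41 kinesins, as the smallest whole numbers that give all 4 values. A hidden common factor would make the intervals too wide. Genes whose mean reached 1 RPKM were compared, on log2(RPKM + 1) with a pseudocount of 1 RPKM, which understates changes of low genes. Ratios of libraries have exact conditional binomial 95% intervals, and their calls compare libraries, not conditions. Reads carry no molecular identifiers, so intervals cover counting error only. The steps were tested on simulated data. Python 3.11.15, numpy 2.4.6, pandas 2.3.3, scipy 1.17.1 and matplotlib 3.10.9 were used. The members and gene lists were chosen with earlier results of these data known. Named are all mitotic and transport kinesins at 1 RPKM or more, any kinesin called, and of the partner lists the genes called and the 3 most abundant. Alternatives were 2 other scalings, minimums of 0.1 and 5 RPKM, a pseudocount of 0.1 RPKM, a 2-fold limit, gene length, a replicate block, the transport list without neuron-enriched members, and each library left out. Protein sequences were not used here.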

Additional observations from a re-analysis of the deposited data

Results flagged for a closer look

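The difference between the second and the first library had opposite signs at the 2 passages for 6 kinesins, which was not tested further. Kif13a had log2 differences of -0.05 at passage 9 and 0.02 at passage 39, which is 0.064 apart, and the 95% interval of the quotient of its ratios, 0.973 to 1.13, included 1. The other 5 were below 1 RPKM. They were Kif2b (0.0922 apart, on 35 reads over the 4 libraries), Kif5a (0.0226, 22 reads), Kif17 (-0.0597, 11 reads), Kif4b (-0.0419, 5 reads) and Kif9 (0.038, 3 reads), each given as passage 39 minus passage 9.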

How the results depend on the processing

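The number of kinesins lower in the second libraries was 19 and lay between 17 and 23 under every alternative run. The 11 lower mitotic kinesins were counted under each, but only the 2 other scalings and the comparison by gene length could have changed them. Leaving out a library drops a passage from the rule, which can only loosen the call. The minimums lie below the level of each of the 11, and the other settings do not enter the call. With median-ratio scaling, 3 kinesins were higher (29.5% of all genes) and 5 were past 1.5-fold. The medians were -0.43 (mitotic) and -0.20 (transport), and 0.03 over all genes. Rescaling to a common sum gave 3 higher (20.9% of all genes), 7 past 1.5-fold and a log2 difference between the lists of 1.69. The medians were then -0.49 and -0.26, and -0.03 over all genes. The share of all genes past 1.5-fold was not counted under either scaling. A minimum of 0.1 RPKM and a pseudocount of 0.1 RPKM moved the mitotic median to -0.33 and -0.35, and comparison with genes of similar length moved it to -0.41. A 2-fold limit left 0 kinesins past it. The difference between the lists was 1.54 with a minimum of 5 RPKM and also 1.54 without the neuron-enriched members.

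Leaving out each library gave a difference between the lists from 1.497 to 1.73. The mitotic median by number was then -0.3405 or -0.3389. Since a left-out library drops its whole passage, these are only the medians of passage 39 and of passage 9 given above. The passage medians turned with the library left out. Without the first library of passage 9 they were 0.18 (mitotic) and 0.074 (transport), without its second -0.14 and -0.061, without the first of passage 39 -0.16 and -0.039, and without its second 0.15 and 0.039, so these medians hold only with libraries of both numbers at both passages. The count of kinesins past 1.5-fold by passage was 0 in each of these. With a replicate block, the passage comparison had 0 kinesins past 1.5-fold and medians of 0.01 and 0.00. Of 124 alternative values 95 moved by less than the limit set for them. Of 300 values of single kinesins, 206 did so and none of those counted as lower or higher changed sign. Many of these outcomes were fixed in advance. The minimums do not enter the value of a single kinesin, and leaving out a library cannot move it past its limit. Nor can a left-out library turn the sign of a counted kinesin. Within their limits stayed only Kif3c and Kif5c under median-ratio scaling, and only Kif26a under rescaling to a common sum. Totals limit the kinesins below 1 RPKM, and with 1 population per passage the spread between cultures was not measured.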

Other observations

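Some genes that work with the kinesins were listed far below their partners. Racgap1, which forms centralspindlin with Kif23, was listed at 0 in 3 libraries and at 0.016 RPKM in the first library of passage 39, beside 24.4 to 29.7 RPKM for Kif23. Ccnb2 was at 2.05 to 2.38 RPKM beside 105 to 121 RPKM for Ccnb1. Map7, which recruits kinesin-1, was listed at 0 in all 4 libraries, and its relative Map7d1 was at 30.9 to 34.6 RPKM. Since the gene models behind the values were not examined here, these low values are given only as listed, and were noticed after the values were seen.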
